A study of Mus musculus with 6 samples.

Results

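The 10 members of the Kruppel-like factor (KLF) family that are tied to fat cell formation and described here are Klf2, Klf3, Klf4, Klf5, Klf6, Klf7, Klf9, Klf10, Klf13 and Klf15. They were taken by gene symbol from a given list, which was drawn up with earlier results of these data known. All 10 symbols were found among the 45808 gene lines of the deposited table, and all 10 passed the filter on low counts, as 14459 genes did in all. The series followed mouse stromal-vascular cells, the fraction of fat tissue that holds adipocyte precursors, as they were turned into beige adipocytes, the heat-producing fat cells of white fat. The donors of the inguinal fat were male mice aged 8 weeks, and every library is labelled WT. Day 0 was the confluent culture without induction. Day 2 came after 2 days in a medium with IBMX at 0.5 mM, which keeps cyclic AMP high, dexamethasone at 5 µM, a glucocorticoid, indomethacin at 125 µM, insulin at 850 nM, the thyroid hormone T3 at 1 nM and rosiglitazone at 1 µM, which activates PPAR gamma. From day 2 to day 6 the cells were kept in rosiglitazone, T3 and insulin, doses unchanged, so day 6 lacked IBMX, dexamethasone and indomethacin. Each day had 2 libraries, numbered 76 and 77. The series calls them biological replicates, and no label ties them to separate mice or dishes, so the p-values measure only the spread between these libraries.

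KLF proteins bind CACCC and GC-rich sites in promoters through zinc fingers at their carboxyl end, while their differing amino ends recruit activators or corepressors. In fat cell precursors they are known to act in sequence around C/EBP beta, C/EBP alpha and PPAR gamma, the factors that drive adipocyte formation. Klf4, Klf5, Klf6, Klf9, Klf13 and Klf15 are known mainly to promote the process, and Klf2, Klf3 and Klf7 to hold it back. Klf10 is known as an early response gene to TGF-beta.

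Libraries held 22522221 to 29458374 counts in genes, and levels are given in CPM, a count scaled by the depth of its library, with TMM scaling to correct for library composition. A count of 0 allows a level of up to 3 counts, or 0.0994 to 0.150 CPM, an estimate that covers counting error only. Adipocyte markers rose at each step in 8 of 8 genes, and their summed level lay between 834 and 952 CPM before induction, between 9708 and 10285 at day 2 and between 47414 and 55918 at day 6. Precursor markers fell in 5 of 7 genes by day 2 and in 6 of 7 by day 6. In bulk RNA, fewer cells of a type and less RNA per cell cannot be told apart. Endothelial markers summed to 32.1 and 37.2 CPM at day 0, 7.19 and 7.68 at day 2, then 13.2 and 16.3 at day 6. Of the 10, 7 were abundant enough to be tested and none was at 0 counts throughout. Of those tested, 6 were lower on both later days than at day 0. From day 2 to day 6, 1 was higher (Tek, log2 change 2.52) and 1 lower (Cdh5, log2 change -0.72). The rise of the sum after day 2 lay mainly in Tek, with means of 21.6 CPM at day 0, 1.67 at day 2 and 9.6 at day 6. Mural markers, those of the cells around vessels, summed to between 679 and 721 CPM at day 0. The sum lay between 164 and 178 at day 2 and between 337 and 396 at day 6. Its largest part was Pdgfrb, with means of 536 CPM at day 0, 111 at day 2 and 139 at day 6. Against day 0, 7 of 9 were lower at day 2, while at day 6 there were 6 lower and 3 higher (Cspg4, Notch3 and Mcam). Macrophage markers lay between 21.9 and 24.7 CPM, then 15.8 and 26.1, then 26.7 and 69.0, and mesothelial and epithelial markers between 9.06 and 11.3, then 2.11 and 3.06, then 3.04 and 3.26, with Epcam at 0 counts in every library. Of these, 1 of 10 macrophage markers was lower at day 2 and 5 were higher at day 6, and 1 mesothelial or epithelial marker of 9 was abundant enough to be tested, lower on both days. These shifts ran beside the KLF results, and their part in them was not tested.

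Promoter sequence was matched for 8 of the 10 genes in RefSeq's GRCm38.p6, with Klf5 and Klf10 unmatched. The promoters of 2 genes that fell and 2 that rose by day 2 are shown, as far as they lie before both the RefSeq and the GENCODE M21 start. Capitals mark CACCC and its reverse complement GGGTG, the core read by KLF proteins, TGACG and CGTCA, the core of the cyclic AMP response element, and in Klf2 a MEF2 site.
Klf2, chr8:72318812-72319032, plus strand: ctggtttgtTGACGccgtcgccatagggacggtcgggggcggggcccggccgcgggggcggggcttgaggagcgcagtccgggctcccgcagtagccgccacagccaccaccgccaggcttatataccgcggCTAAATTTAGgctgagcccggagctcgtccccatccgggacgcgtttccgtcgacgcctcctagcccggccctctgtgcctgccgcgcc
Klf4, chr4:55532476-55532725, minus strand: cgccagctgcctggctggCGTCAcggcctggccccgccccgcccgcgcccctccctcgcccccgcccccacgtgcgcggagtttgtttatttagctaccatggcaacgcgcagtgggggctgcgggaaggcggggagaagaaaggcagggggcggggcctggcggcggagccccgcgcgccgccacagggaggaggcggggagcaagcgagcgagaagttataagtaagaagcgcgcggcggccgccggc
Klf9, chr19:23140976-23141225, plus strand: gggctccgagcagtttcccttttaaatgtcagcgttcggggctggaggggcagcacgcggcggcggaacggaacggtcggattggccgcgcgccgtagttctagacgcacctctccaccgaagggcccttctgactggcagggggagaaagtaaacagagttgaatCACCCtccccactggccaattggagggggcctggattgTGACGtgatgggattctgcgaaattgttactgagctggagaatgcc
Klf15, chr6:90462326-90462575, plus strand: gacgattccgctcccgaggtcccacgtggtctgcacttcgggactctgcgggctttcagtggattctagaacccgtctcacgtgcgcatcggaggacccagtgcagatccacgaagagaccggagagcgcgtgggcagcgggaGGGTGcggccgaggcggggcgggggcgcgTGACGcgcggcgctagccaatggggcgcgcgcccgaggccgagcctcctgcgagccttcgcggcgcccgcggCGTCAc
In windows of 250 bases before the RefSeq start, searched on both strands, the letters CACCC occurred in 6 of the 8 promoters (Klf2, Klf3, Klf7, Klf9, Klf13 and Klf15) and in 51.3% of 27025 promoters of all genes. The window of Klf2 holds its CACCC match after the stretch shown. The RefSeq start of Klf7 lies 893 bases inside the GENCODE gene, so its whole window falls within that gene. Of the windows of Klf3, Klf2 and Klf6, 117, 221 and 243 bases lie before the GENCODE start. The motif counts use the full windows. TGACG occurred in 5 (Klf2, Klf4, Klf9, Klf13 and Klf15) against 17.9% of all promoters, and CCAAT in 4 (Klf6, Klf9, Klf13 and Klf15) against 34.5%. The GC box GGGCGG occurred in 7 of the 8 against 32.9%. The MEF2 site occurred in Klf2 alone, 118 to 109 bases before the start, against 3.01% of all promoters. AGAACA, the glucocorticoid receptor half-site, occurred in none of the 8 and in 16.2% of all promoters. The GC content of the 8 windows ran from 59.2% to 78.4%, with a median of 52.0% over all promoters. TGACG was present in promoters of genes that rose and of genes that fell.

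By day 2, 5 of the 10 genes had risen and 5 had fallen. Klf5, Klf9, Klf10, Klf13 and Klf15 rose, and Klf2, Klf3, Klf4, Klf6 and Klf7 fell, at an adjusted p under 0.05 in edgeR's quasi-likelihood test. Of all genes tested 67.1% were called on this comparison, 33.6% higher and 33.6% lower. A fitted fall of more than 2-fold was found for 5 KLF genes (17.9% of all genes tested) and a rise of that size for 3 (12.3%). The 2 libraries of each day did not overlap with those of the other day for any of the 10, as was true of 86.1% of genes. The median log2 change of the 10 was -0.43, between the 2 directions, beside 0.00 over all genes. The 3 comparisons share their libraries, so values are set side by side. All 10 differed between at least 2 of the days, as did 84.8% of all genes.

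**Figure D1:**
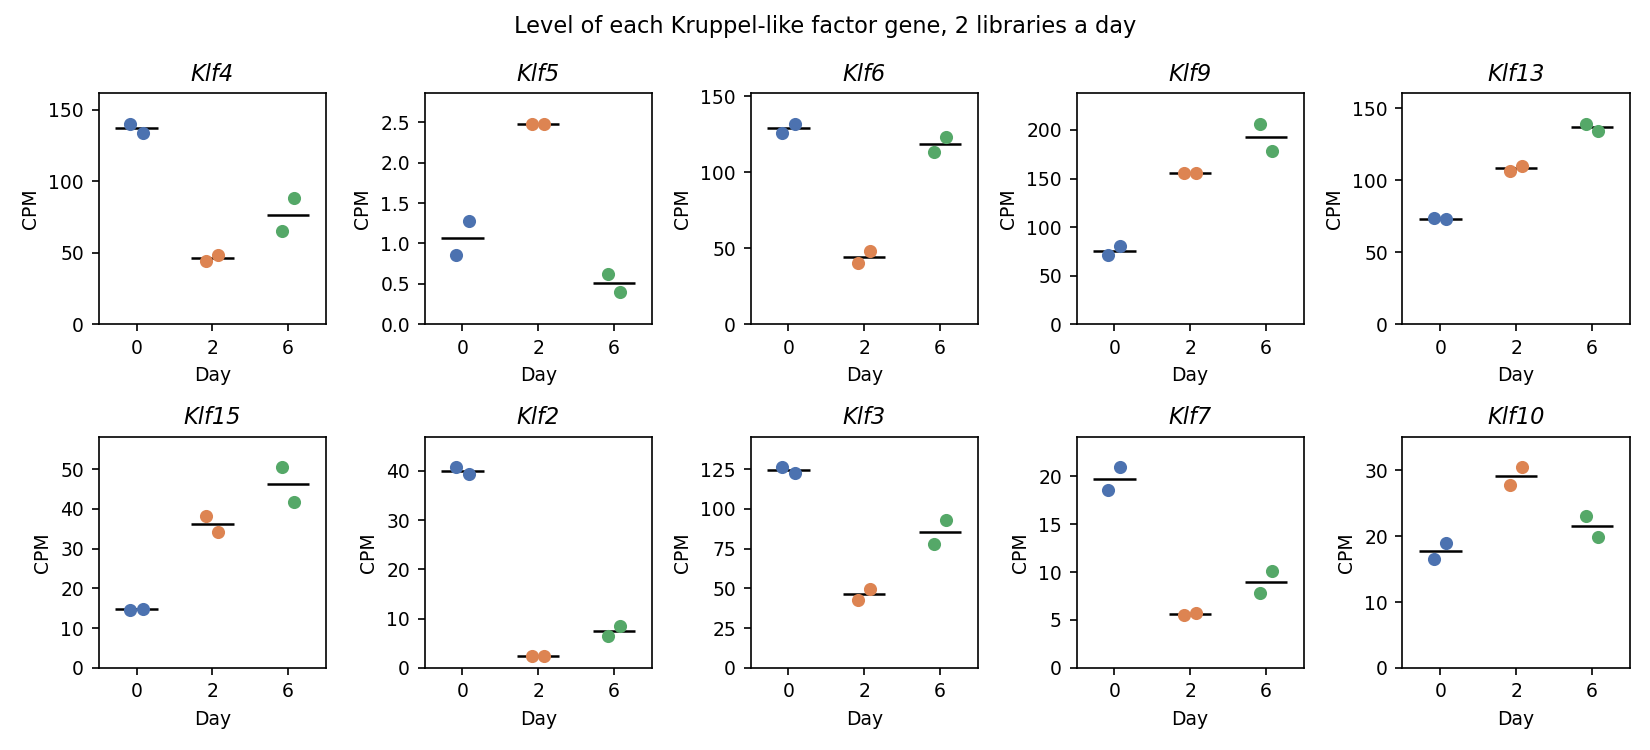
Level of each of the 10 genes in CPM (vertical axis, from 0) at days 0, 2 and 6 (horizontal axis); each point is a library and each bar the mean of the 2 libraries of a day. Klf4, Klf6, Klf2, Klf3 and Klf7 are lowest at day 2, Klf5 and Klf10 highest at day 2, and Klf9, Klf13 and Klf15 highest at day 6.

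Klf4, which is known to switch on Cebpb with Egr2 at the very start of adipogenesis, lies on chromosome 4 from 55527143 to 55532466 (minus strand, GRCm38), with 5 exons in its longest transcript. Klf4 was counted at 140 and 134 CPM at day 0, 44.6 and 48.2 at day 2, then 65.4 and 88.2 at day 6. The 3 days did not overlap, and the day 6 libraries stood furthest apart. Klf4 fell 2.95-fold by day 2 (log2 change -1.56, SE 0.13, adjusted p = 1.63e-05 by edgeR) and rose 1.65-fold from there to day 6 (log2 change 0.73, SE 0.13, adjusted p = 0.00124 by edgeR). At day 6 it was still 1.79-fold below day 0 (log2 change -0.84, SE 0.13).

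Klf5, known to be switched on by C/EBP beta and C/EBP delta and to activate Pparg, was the scarcest of the 10. The gene lies on chromosome 14 from 99298691 to 99315036 (plus), with 4 exons. It had 26 and 31 counts at day 0, 73 and 69 at day 2, then 14 and 8 at day 6, or 0.861 and 1.28, then 2.48 and 2.48, then 0.625 and 0.399 CPM. Day 2 was above both other days in each library. The rise was 2.34-fold (log2 change 1.23, SE 0.29, adjusted p = 0.00599 by edgeR), and leaving out replicate 76 of day 0 took the call away (adjusted p = 0.0638, with 0.000168 to 0.0638 over the alternatives). From day 2 to day 6 Klf5 fell 4.76-fold (log2 change -2.25, SE 0.34, adjusted p = 0.000521 by edgeR). Day 6 was 2.03-fold below day 0 (log2 change -1.02, SE 0.38, adjusted p = 0.0399 by edgeR), a call that was lost with DESeq2 (adjusted p = 0.0667) and without replicate 77 of day 0 (0.211), replicate 76 (0.0677) or 77 (0.0681) of day 2 or replicate 77 of day 6 (0.174), over a span of 0.0153 to 0.211.

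Klf6, known to repress the precursor gene Dlk1, showed a trough at day 2. It lies on chromosome 13 from 5861482 to 5870394 (plus), with 4 exons. Klf6 libraries gave 126 and 132 CPM at day 0, 40.3 and 48.1 at day 2, then 114 and 123 at day 6. Only day 2 stood apart by a wide margin, although no day 6 library reached a day 0 library. Klf6 fell 2.91-fold by day 2 (log2 change -1.54, SE 0.10, adjusted p = 3.86e-06 by edgeR) and rose 2.68-fold from day 2 to day 6 (log2 change 1.42, SE 0.10, adjusted p = 4.67e-06 by edgeR). Between days 0 and 6 the log2 change was -0.12 with a 95% interval of -0.34 to 0.09 (adjusted p = 0.262 by edgeR and between 0.0105 and 0.613 over the alternatives). It passed the threshold, at -0.37, only where library totals replaced TMM.

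Klf9, known to activate Pparg together with C/EBP alpha and to answer glucocorticoids, lies on chromosome 19 from 23141226 to 23168134 (plus), with 2 exons. Klf9 libraries held 70.9 and 80.6 CPM at day 0, 156 and 156 at day 2, then 206 and 178 at day 6. Both later days were above day 0 in every library. The rise by day 2 was 2.06-fold (log2 change 1.04, SE 0.10, adjusted p = 2.91e-05 by edgeR) and that by day 6 2.54-fold (log2 change 1.35, SE 0.10, adjusted p = 5.13e-06 by edgeR).

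Klf13, a member of the same branch of the family as Klf9, lies on chromosome 7 from 63886351 to 63938915 (minus), with 2 exons. It had the smallest change of the 10 by day 2. Klf13 levels were 73.9 and 72.8 CPM at day 0, 107 and 110 at day 2, then 139 and 134 at day 6. The days did not overlap on this scale, and the step from day 2 to day 6 turned sign with library totals (log2 change -0.02). Klf13 rose 1.48-fold by day 2 (log2 change 0.56, SE 0.06, adjusted p = 9.62e-05 by edgeR) and was 1.86-fold above day 0 at day 6 (log2 change 0.90, SE 0.06).

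Klf15, known to activate Pparg and the glucose transporter gene Slc2a4, to run amino acid breakdown in muscle and liver and to answer glucocorticoids, lies on chromosome 6 from 90462576 to 90475238 (plus), with 4 exons. Klf15 libraries gave 14.6 and 14.9 CPM at day 0, 38.2 and 34.2 at day 2, then 50.5 and 41.8 at day 6. It rose most of the 10 in the fit, 2.46-fold by day 2 (log2 change 1.30, SE 0.11, adjusted p = 1.98e-05 by edgeR) and 3.14-fold by day 6 (log2 change 1.65, SE 0.11, adjusted p = 3.68e-06 by edgeR). The day 2 rises of Klf15 and Klf5 (95% intervals of log2 change 1.04 to 1.56 and 0.55 to 1.91) overlapped, and the order of the pair was not tested.

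Klf2, known to keep cells in the precursor state by repressing Pparg, had the largest change of the 10. It lies on chromosome 8 from 72319033 to 72321656 (plus), with 3 exons. Klf2 levels were 40.8 and 39.4 CPM at day 0, 2.35 and 2.48 at day 2, then 6.39 and 8.58 at day 6. The day 2 libraries held 69 counts each where those of day 0 held 1231 and 956. Klf2 fell 16.6-fold by day 2 (log2 change -4.05, SE 0.15, 95% interval -4.40 to -3.71, adjusted p = 4.79e-07 by edgeR). It rose 3.09-fold from day 2 to day 6 (log2 change 1.63, SE 0.17, adjusted p = 5.30e-05 by edgeR), and day 6 was 5.37-fold below day 0 (log2 change -2.43, SE 0.13). Klf2 is known for high levels in endothelial cells, whose markers fell beside it as given above, and their part in this result was not tested.

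Klf3, a repressor known to act on Cebpa with the corepressor CtBP, lies on chromosome 5 from 64803388 to 64832901 (plus), and 3.59% of its exonic length is overlapped by the gene Gm20033 on the other strand. Klf3 libraries held 126 and 122 CPM at day 0, 42.5 and 49.9 at day 2, then 77.8 and 93.2 at day 6. Klf3 fell 2.69-fold by day 2 (log2 change -1.43, SE 0.11, adjusted p = 1.01e-05 by edgeR), rose 1.85-fold from day 2 to day 6 (log2 change 0.89, SE 0.11) and ended 1.45-fold below day 0 (log2 change -0.54, SE 0.10, adjusted p = 0.00177 by edgeR). The order of the days was the same in both numbered libraries.

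Klf7, known to block adipogenesis when raised in precursors, lies on chromosome 1 from 64029447 to 64122282 (minus). Genes on the plus strand, mainly Gm26649, overlap 39.4% of its exonic length, and as the strand setting of the counting is not given, reads there cannot be told apart. Klf7 was counted at 18.6 and 21.0 CPM at day 0, 5.54 and 5.75 at day 2, then 7.82 and 10.1 at day 6. Klf7 fell 3.50-fold by day 2 (log2 change -1.81, SE 0.15, adjusted p = 1.44e-05 by edgeR). The rise from day 2 to day 6 was 1.58-fold (log2 change 0.66, SE 0.15, adjusted p = 0.00552 by edgeR), a call lost with library totals (log2 change 0.30, adjusted p = 0.144, and from 5.46e-05 to 0.144 over all alternatives). Day 6 was 2.21-fold below day 0 (log2 change -1.15, SE 0.14).

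Klf10, the TGF-beta early gene, lies on chromosome 15 from 38291463 to 38300706 (minus), with 4 exons in its longest transcript. Klf10 levels were 16.5 and 19.0 CPM at day 0, 27.7 and 30.5 at day 2, then 23.1 and 19.9 at day 6. Klf10 rose 1.64-fold by day 2 (log2 change 0.71, SE 0.11, adjusted p = 0.000592 by edgeR) and fell 1.35-fold from day 2 to day 6 (log2 change -0.43, SE 0.11, adjusted p = 0.00901 by edgeR). The later call did not hold when replicate 77 of day 2 was left out (adjusted p = 0.0627, and from 0.000222 to 0.0627 over all alternatives). Day 6 against day 0 gave a log2 change of 0.28 with a 95% interval of 0.02 to 0.55 (adjusted p = 0.0564 by edgeR, and from 0.0129 to 0.808 over the alternatives), which passed with no filter on low counts (0.0278) and without replicate 77 of day 0 (0.0429) or of day 6 (0.0129).

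**Figure D2:**
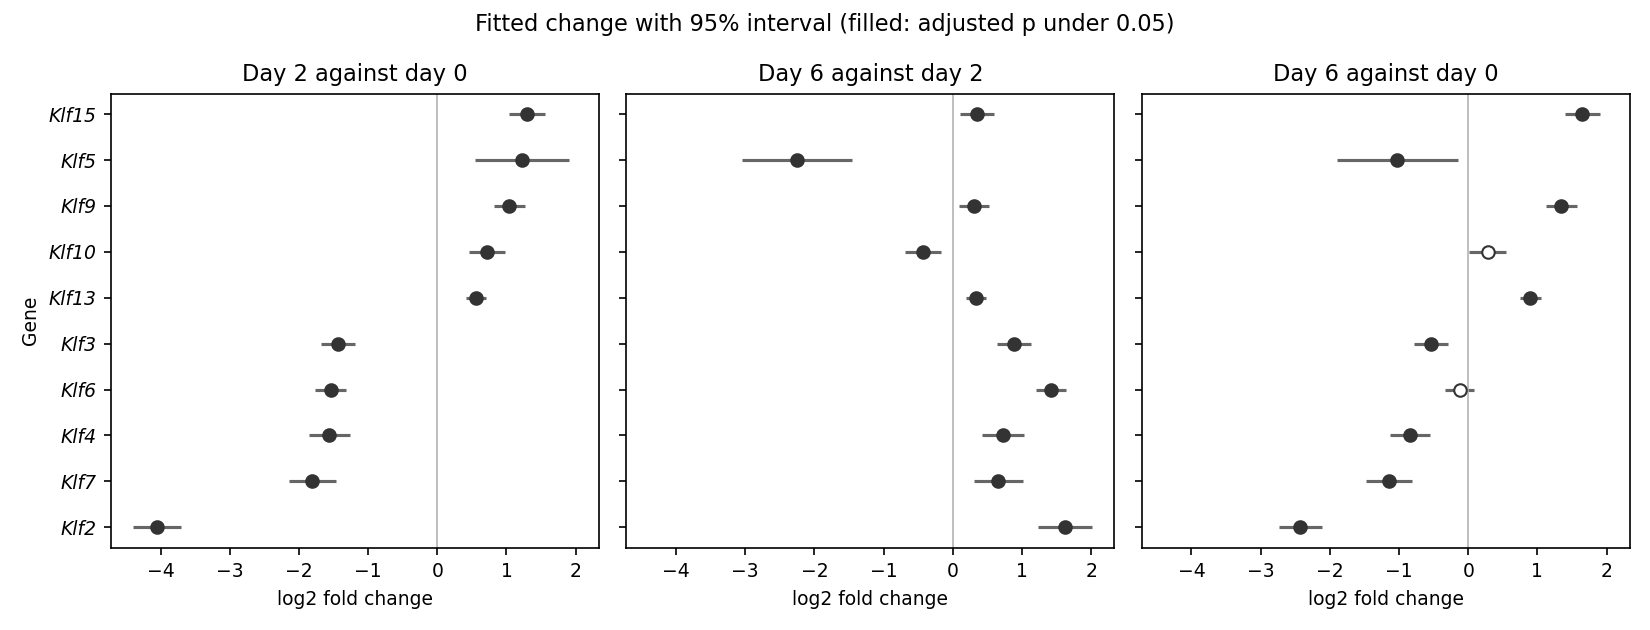
Fitted log2 fold change (horizontal axis) of each of the 10 genes (vertical axis, ordered by the change to day 2) in the 3 comparisons, with 95% intervals; filled points have an adjusted p under 0.05 by edgeR. All 10 points are filled at day 2 against day 0, and those of Klf6 and Klf10 are open at day 6 against day 0.

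From day 2 to day 6 the 5 genes that had fallen rose again, Klf7 not under every scaling, and Klf5 and Klf10 fell back. Over this step the cells were without IBMX, dexamethasone and indomethacin and also spent longer in culture. The parts of the medium and of time cannot be told apart. In the TMM fit 8 of the 10 were called higher (38.2% of all genes tested) and 2 lower (27.5%), where 65.7% of all genes were called. The median log2 change of the 10 was 0.51, beside 0.12 over all genes. Past 2-fold, Klf2 and Klf6 were higher (19.2% of all genes) and Klf5 lower (10.4%), and the library values of the days did not overlap for any of the 10 (82.4% of all genes). The rises of Klf2, Klf3, Klf4 and Klf6 passed under every alternative run, with log2 changes of at least 1.27, 0.53, 0.37 and 1.06. Those of Klf9, Klf13 and Klf15 were small, and their sign depended on the scaling. Klf9 had a log2 change of 0.30 (SE 0.09, adjusted p = 0.0206 by edgeR), which became -0.06 with library totals and lost its call with DESeq2's test and size factors and without replicate 77 of day 0, either replicate of day 2 or replicate 76 of day 6 (adjusted p from 0.00154 to 0.597 over the alternatives). Klf15 had 0.35 (SE 0.10, adjusted p = 0.0176 by edgeR), which became -0.01 with library totals and lost its call with DESeq2's test and size factors and without replicate 77 of day 0, replicate 77 of day 2 or replicate 76 of day 6 (adjusted p from 0.00109 to 0.927). Klf13 had 0.34 (SE 0.06, adjusted p = 0.00173 by edgeR), which became -0.02 with library totals and lost its call without replicate 77 of day 0 (adjusted p from 0.000792 to 0.785). Library totals moved the median log2 change of all genes by -0.36 in this comparison, by -0.25 for day 6 against day 0 and by 0.11 for day 2 against day 0. Relative to the median of all genes, the change of Klf9 was 0.18 under both scalings, that of Klf13 0.21 under both and that of Klf15 0.23 and 0.22. A change of scaling moves all genes by nearly the same amount, so this agreement was set in advance. It does not bear on the sign of these changes. Over all genes TMM gave 5520 higher and 3981 lower calls here and library totals 3650 and 6182. Among the 10 genes, library totals left 4 called higher (Klf2, Klf3, Klf4 and Klf6), and 5 were left without replicate 77 of day 0. Without replicate 77 of day 2, Klf5 alone was called lower.

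**Figure D3:**
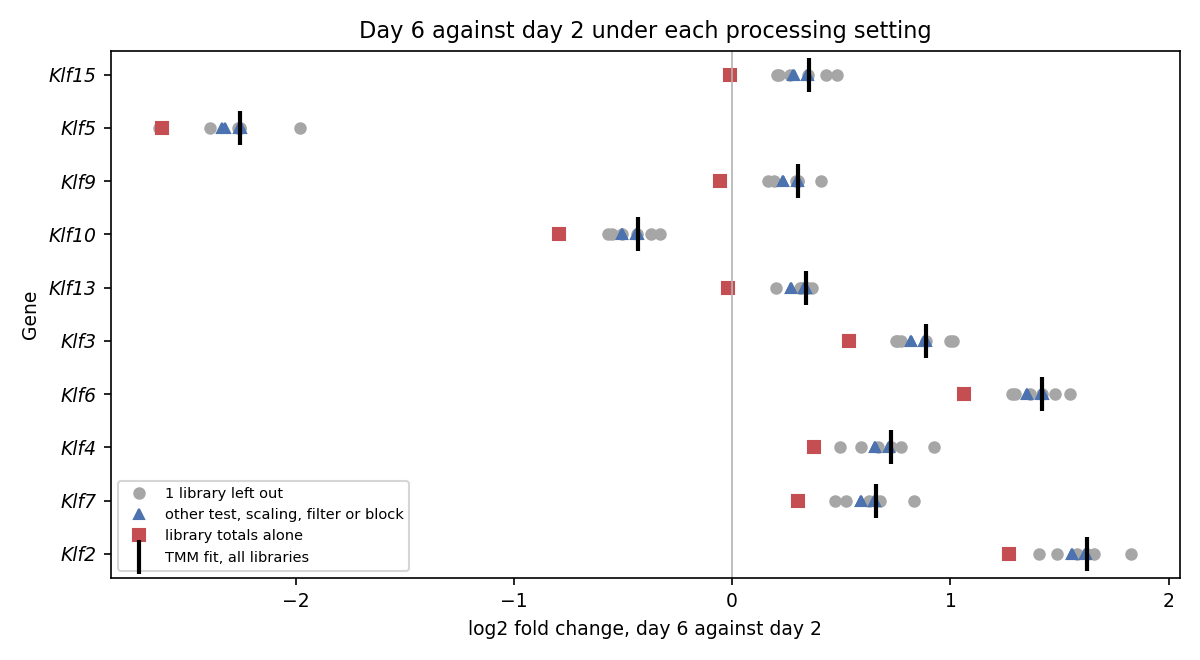
Log2 fold change of day 6 against day 2 (horizontal axis) for each of the 10 genes (vertical axis) in the TMM fit with all libraries (black bars), with 1 library left out (grey), with another test, scaling, filter or the replicate block (blue) and with library totals alone (red). The red squares of Klf9, Klf13 and Klf15 lie at -0.06, -0.02 and -0.01.

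Over the whole course, day 6 against day 0, 3 of the 10 genes were higher (35.9% of all genes tested) and 5 lower (35.1%), where 70.9% of all genes were called. Klf9, Klf13 and Klf15 were higher under every alternative run, with log2 changes of at least 1.10, 0.65 and 1.40. Klf2, Klf3, Klf4 and Klf7 were lower under every alternative, and Klf5 was lower with the exceptions given above. Past 2-fold, Klf9 and Klf15 were higher (18.5% of all genes) and Klf2, Klf5 and Klf7 lower (18.4%), and no library values overlapped for the 10 (86.9% of all genes). At day 6 Klf2 stood at 18.7% of its day 0 level, Klf7 at 45.2%, Klf5 at 47.9%, Klf4 at 56.0%, Klf3 at 68.8% and Klf6 at 91.9%. Klf10, Klf13, Klf9 and Klf15 stood at 121%, 186%, 254% and 314%. Library totals gave 3967 higher and 6476 lower calls over all genes in place of 5184 and 5069. The median log2 change of the 10 was -0.33, beside -0.01 over all genes.

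The members were then set beside each other per kilobase of merged exon length, since longer transcripts yield more reads. At day 0 the order of levels was Klf4 (44.9 ± 1.57 CPM per kb, SD, n = 2), Klf6 (29.3 ± 1.01), Klf2 (21.7 ± 0.531), Klf9 (15.7 ± 1.43), Klf3, Klf13, Klf15, Klf10, Klf7 and Klf5 (0.206 ± 0.0565). At day 2 Klf9 came first at 32.4 ± 0.0176 CPM per kb, followed by Klf4 (15.2 ± 0.825), Klf13 (14.4 ± 0.278), Klf15 (12.98 ± 1.02) and Klf6 (10.1 ± 1.26), and Klf2 had dropped to the eighth place at 1.31 ± 0.0521. At day 6 Klf9 was again first at 39.96 ± 4.13, before Klf6 (26.9 ± 1.53), Klf4 (25.2 ± 5.28), Klf13 (18.2 ± 0.482) and Klf15 (16.5 ± 2.21). Neighbours in these orders had libraries that did not overlap, except Klf6 with Klf4 and Klf13 with Klf15 at day 6. With the length of the longest transcript instead, 7 of the 10 kept their place at day 0, 6 at day 2 and 10 at day 6. At day 0 Klf3 then stood at 23.8 CPM per kb in place of 11.1, above Klf2 (21.7) and Klf9 (16.9).

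The summed level of the 10 genes was 145 ± 0.757 CPM per kb at day 0, 98.6 ± 2.33 at day 2 and 145 ± 1.40 at day 6 (SD, n = 2). The sums of days 0 and 6 lay within the spread of their libraries on this scale. With the longest transcript as length the summed means were 164 CPM per kb at day 0, 113 at day 2 and 165 at day 6. With library totals in place of TMM the summed means were 149 CPM per kb at day 0, 110 at day 2 and 126 at day 6. Without division by length the sum with TMM was 633 ± 6.05 CPM at day 0 and 694 ± 4.66 at day 6, with no overlap. This sum was not taken with library totals, under which the sum per kb was lower at day 6 than at day 0. Klf4 made up 31.1% ± 1.25 of the sum at day 0, 15.4% ± 0.472 at day 2 and 17.4% ± 3.48 at day 6. Klf2 went from 14.999% ± 0.446 to 1.33% ± 0.0215 and 2.80% ± 0.552, and Klf9 from 10.9% ± 0.929 to 32.9% ± 0.796 and 27.6% ± 3.12. The 5 genes that fell by day 2 made up 75.7% ± 1.17 of the sum at day 0, 31.8% ± 1.91 at day 2 and 44.8% ± 5.65 at day 6. As these genes were grouped by their day 2 change, the shares are a description. At day 6 their share was 40.8% in replicate 76 and 48.8% in replicate 77, so the 2 libraries of that day differed by more than those of the other days.

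**Figure D4:**
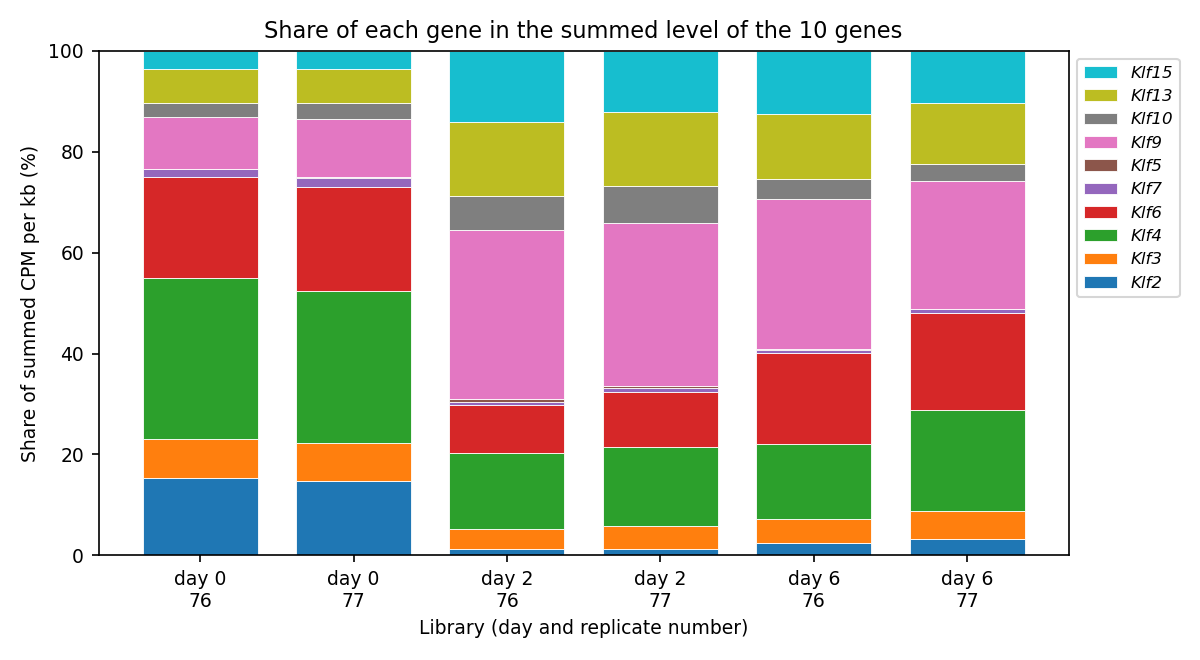
Share of each of the 10 genes in their summed CPM per kb (vertical axis, %) in each of the 6 libraries (horizontal axis, by day and replicate number). Klf2, Klf3, Klf4, Klf6 and Klf7, stacked from the bottom, fill 76.5% and 74.8% of the bars of day 0, 30.5% and 33.2% of those of day 2 and 40.8% and 48.8% of those of day 6.

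The members' courses were compared by the root mean square difference of their log2 CPM over the 6 libraries, each gene centred on its own mean. The closest pair was Klf3 with Klf4 (0.139), then Klf9 with Klf15 (0.146), Klf4 with Klf7 (0.147), Klf9 with Klf13 (0.232) and Klf3 with Klf6 (0.237). Among all genes tested, those closest to Klf2 were Tpm1, a tropomyosin of actin filaments (0.0785), and Tgfb1i1, an adhesion-linked coregulator (0.110). Tpm1 went from 761 ± 0.437 CPM (day 0) to 50.3 ± 5.05 (day 2) and 136 ± 23.7 (day 6). Closest to Klf9 were Map3k6 (0.0576) and C2cd2l (0.0608), and to Klf15 Tomm40, the pore of the mitochondrial outer membrane (0.0384), and Tmem199 (0.0573). Klf3 had Zmynd8 (0.0536) and Kifc3 (0.0636), Klf4 had Fer (0.0554) and Plce1 (0.0652), Klf6 had Nacc2 (0.0693) and Rhoq (0.0971), and Klf7 had Mapk8ip1 (0.0491) and Osbpl5 (0.0634). Klf10 had Raver2 (0.0287) and Slc30a1 (0.0662), Klf13 had Sbno1 (0.0279) and Vipas39 (0.0288), and Klf5, at low counts, had Fgfr3 (0.168) and Gsg2 (0.172). With 3 days, many genes share a course, and these distances are descriptions.

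For the lists that follow, 33.6% of all genes tested were called higher and 33.6% lower at day 2 against day 0. The shares were 38.2% and 27.5% for day 6 against day 2, and 35.9% and 35.1% for day 6 against day 0. Of the 7 remaining Klf genes 3 were tested. Klf11, the closest relative of Klf10 and known as a partner of PPAR gamma in browning, went from 13.9 ± 1.13 CPM (day 0) to 6.34 ± 0.934 (day 2) and 10.6 ± 0.454 (day 6) (SD, n = 2). Klf11 fell 2.19-fold by day 2 (log2 change -1.13, SE 0.14, adjusted p = 0.000148 by edgeR), the opposite direction to Klf10. The rise of Klf11 after day 2 (log2 change 0.73) lost its call with library totals (adjusted p = 0.0577 by edgeR, and from 5.77e-06 to 0.0577 over all alternatives), and its deficit at day 6 against day 0 (log2 change -0.40) lost its call without replicate 76 of day 6 (adjusted p = 0.0920) or replicate 77 of day 0 (0.181), over a span of 0.00397 to 0.181. Klf16 fell from 37.7 ± 0.966 to 27.8 ± 3.29 and 16.7 ± 0.0307 CPM, and its first step (log2 change -0.44) did not pass when replicate 77 of day 0 was left out (adjusted p = 0.132 by edgeR, and from 0.000129 to 0.132 over all alternatives). Klf1 had 3 to 14 counts a library and passed no test. Klf8 and Klf12 had at most 7 counts in a library, and Klf14 and Klf17 had 0 in all 6.

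Of the 9 Sp genes, the nearest relatives of the family, 5 were tested. At day 2, 1 was higher and 2 were lower than at day 0, and at day 6 1 was higher and 1 lower. Sp1 and Sp3, the broadly expressed members, had log2 changes of -0.04 and 0.05 by day 2 with adjusted p of 0.631 and 0.647 by edgeR. Both are named outside the rule for named genes, after their values were seen. Sp7, a factor known from bone formation, fell 38.3-fold by day 2, from 10.2 ± 0.793 to 0.259 ± 0.163 CPM. Sp4 was called higher at day 2 (log2 change 0.48) and Sp2 lower (log2 change -0.49), and without replicate 76 of day 2 Sp7 alone was called. The Sp4 call was also lost with DESeq2, without replicate 76 of day 0 and without replicate 77 of day 2 (adjusted p from 0.0102 to 0.123), and that of Sp2 without replicate 77 of day 0 or replicate 76 of day 2 (adjusted p from 0.000278 to 0.108).

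Genes known as targets of KLF proteins in fat, muscle or liver mostly rose. Of 9 tested, 6 were higher and 1 lower at day 2 than at day 0, and 7 were higher and 2 lower at day 6, with median log2 changes of 1.14 and 4.03. Pparg went from 11.6 ± 0.608 CPM to 106 ± 8.42 and 188 ± 21.5, and Cebpa from 257 ± 37.4 to 1148 ± 202 and 1915 ± 58.1. Cebpb, the target of Klf4, stood at 116 ± 0.661, 117 ± 11.4 and 59.7 ± 6.28 CPM. It was 1.95-fold lower at day 6 than at day 0 (log2 change -0.96, SE 0.10, adjusted p = 3.46e-05 by edgeR), and another gene overlaps 20.7% of its exonic length. Slc2a4, the insulin-responsive glucose transporter and a target of Klf15, went from 0.802 ± 0.318 CPM to 5.89 ± 0.0866 and 384 ± 86.7, and Acss2, which makes acetyl-CoA from acetate and is a target of Klf15, from 21.3 ± 1.502 to 42.7 ± 3.11 and 778 ± 136. Gpt and Prodh, which break down alanine and proline, were each 22.3-fold higher at day 6 than at day 0. Dlk1, the target of Klf6 and named after its values were seen, was the gene lower at day 2, at 19.6 ± 1.00 CPM from 27.6 ± 0.243. The list had no lower gene at day 2 when any 1 of the day 0 or day 2 libraries was left out or library totals were used.

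Partners of the family, which act before or with a KLF protein, went both ways. Of 12 tested, 5 were higher and 6 lower at day 2 than at day 0, with a median log2 change of -0.15. Most lower calls depended on the setting: 3 were left with library totals and without replicate 76 of day 0 or of day 2, and 2 without replicate 77 of day 0, and in the left-out fits named here 7 partners were called in all. Egr2, which acts with Klf4, went from 9.50 ± 1.30 CPM to 46.8 ± 3.99 and back to 13.4 ± 1.54, a course that Klf4 itself did not share. Cebpd, an activator of Klf5, fell at both steps, from 141 ± 4.05 CPM to 78.9 ± 4.68 and 43.3 ± 5.57, and another gene overlaps 15.003% of its exonic length. Hdac3, a deacetylase of corepressor complexes, rose from 57.3 ± 1.25 to 84.5 ± 0.930 CPM by day 2. At day 6 against day 0, 2 partners were higher and 6 lower, and 3 in all were called without replicate 76 of day 0.

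Other glucocorticoid-responsive genes rose with Klf9 and Klf15, 8 of 12 by day 2 with 2 lower, and 11 of 12 by day 6 with 1 lower. Their median log2 changes were 1.33 and 1.61. Over all genes tested, 33.6% were higher and 33.6% lower by day 2, and 35.9% higher and 35.1% lower by day 6. Zbtb16, a zinc finger factor, went from 0.310 ± 0.0303 CPM to 79.4 ± 0.0979 and 112 ± 6.77, and Fkbp5, a chaperone of the receptor, from 25.6 ± 1.55 to 171 ± 2.49 and 249 ± 53.4. Both stayed high at day 6, as Klf9 and Klf15 did, when the medium no longer held dexamethasone. Dexamethasone was given together with the other components of the medium, and its part in these changes was not tested. From day 2 to day 6, 8 of the 12 listed genes were higher and 3 lower. Among the lower, Angptl4 had a log2 change of -0.32 (-0.26 without replicate 76 of day 2). Errfi1, named after its values were seen, had -1.21. Mt2, a metallothionein, peaked at day 2 (74.5 ± 12.3, 1150 ± 31.4 and 263 ± 63.3 CPM), and another gene overlaps 73.5% of its exonic length. The 2 lower calls of day 2 (Nr3c1, the receptor, and Sgk1, a kinase, both named after their values were seen) were both lost with library totals and without replicate 77 of day 0, and 1 of them with DESeq2 and without replicate 76 of day 0, replicate 76 of day 2 or replicate 77 of day 2. The lower call of Sgk1 at day 6 was lost without replicate 76 of day 0.

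Immediate early genes, which answer serum and cyclic AMP and among which Klf2, Klf4, Klf6 and Klf10 are counted, split by day 2 into 9 higher and 5 lower of 14. Without replicate 76 of day 0, 9 in all were called, 3 of them lower, and 3 were lower without replicate 77 of day 0. Myc rose from 29.1 ± 0.365 to 152 ± 13.6 CPM and was back at 28.1 ± 0.0826 at day 6, and Nr4a1, a nuclear receptor, went from 48.7 ± 2.61 to 95.95 ± 6.27 and 7.76 ± 1.37. Ier3, an early response gene, fell from 18.6 ± 1.58 to 6.44 ± 1.52 CPM by day 2, as Klf2, Klf4 and Klf6 did. At day 6, 3 were higher and 8 lower than at day 0.

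The kinase ERK5 (Mapk7) and the MEF2 factors are known to induce Klf2 and Klf4. Of 7 genes of this branch 5 were lower by day 2 and none higher, with a median log2 change of -0.26. At day 6, 2 were higher and 3 lower than at day 0 (1 and 5 with library totals), and 3 were higher and 2 lower than at day 2, with no lower call without replicate 76 of day 2 and 1 without replicate 76 of day 6 or 77 of day 2. Mapk7 fell from 65.3 ± 2.72 to 27.4 ± 1.33 CPM (log2 change -1.25, SE 0.12), Mef2c from 19.9 ± 1.51 to 7.32 ± 0.128 (log2 change -1.44, SE 0.14) and Mef2a from 69.3 ± 3.75 to 43.98 ± 2.25 (log2 change -0.66, SE 0.08). Their highest adjusted p was 0.000106 by edgeR. Mef2a, Map2k5 and Mef2d rose from day 2 to day 6, with log2 changes of 0.68, 0.61 and 0.58 (highest adjusted p = 0.000936 by edgeR). The call of Map2k5 was lost with library totals (log2 change 0.25, adjusted p = 0.0515 by edgeR). From day 2 to day 6, when Klf2 and Klf4 rose, Mapk7 had a log2 change of -0.46 (adjusted p = 0.0124 by edgeR, and 0.0710 without replicate 76 of day 2, in a span of 2.34e-05 to 0.0710). The count of lower genes at day 2 was 3 with DESeq2, with its size factors, with library totals and without replicate 76 of day 2, 77 of day 0 or 77 of day 2. Early TGF-beta targets, the class that Klf10 belongs to, were lower in 5 of 5 genes at day 2 and at day 6 than at day 0 (median log2 changes -2.17 and -1.72), where Klf10 itself rose by day 2. Ctgf, a matrix protein gene, fell from 221 ± 1.28 to 2.20 ± 0.755 CPM by day 2. The sum of the mural markers fell beside these genes, as given above, and the part of these markers was not tested.

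**Figure D5:**
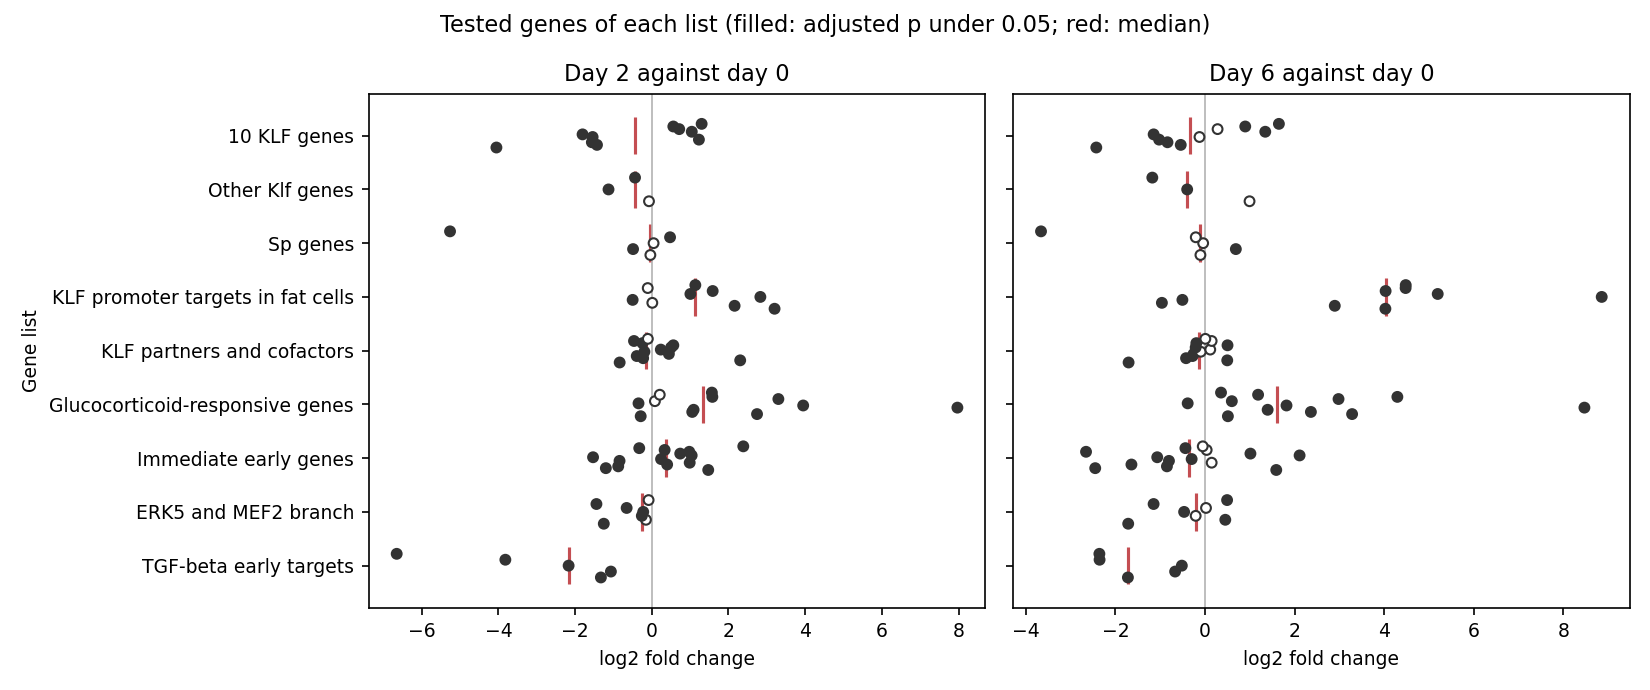
Log2 fold change (horizontal axis) of each tested gene of the 9 lists (vertical axis) at day 2 and at day 6 against day 0; filled points have an adjusted p under 0.05 by edgeR, and red bars are list medians. The 10 KLF genes lie on both sides of 0 with medians of -0.43 and -0.33, while all TGF-beta early targets lie below 0 on both days.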

How the data were processed

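Poly(A)-selected RNA of 6 libraries (days 0, 2 and 6, replicates 76 and 77) was sequenced. The deposited table holds raw read counts per gene, whole numbers although its column names speak of RPKM. The submitters' processing notes name TopHat2 2.0.13, a read aligner, HTSeq 0.9.1, a read counter, and the build mm10 (GRCm38), and the sources used here do not give the counting mode, strand setting or annotation. Summary lines that name no gene were left out (reads without a feature 2.62% to 3.23%, ambiguous reads 4.40% to 4.91%, reads not uniquely placed 4.16% to 9.05% of all counts).

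One edgeR 4.0.16 quasi-likelihood fit (R 4.3.3) covered the 6 libraries with a mean per day, the default filter on low counts and TMM scaling, with 3 residual degrees of freedom. Benjamini-Hochberg adjustment ran over the 14459 genes tested, and calls are made at 0.05. Fold changes and standard errors are those of the fit, and 95% intervals come from its F test. The scripts were tested on simulated data. Alternatives were DESeq2's size factors, library totals, DESeq2 1.42.0, no filter, the replicate number as a block, leaving out each library, and, for the order of levels, the longest transcript and library totals. Lengths and positions are from GENCODE M21.

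Replicates of a day differed by more than counting noise (chi-square per degree of freedom 6.75, 7.53 and 26.3). Deviations of same-numbered libraries were correlated across genes (r = 0.109 for days 0 and 2, 0.112 for days 0 and 6, and 0.213 for days 2 and 6). These values pass the limit of 0.1 set for pairing, although no source says what a number marks. Rank correlations were 0.0589, 0.0546 and 0.176 in the same order, and only that of days 2 and 6 is above 0.1. The printed fit does not use the pairing, and the fit with the replicate number as a block is an alternative.

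The members and gene lists were chosen with earlier results of these data known. Named from each other list were up to 3 genes of the largest change past the threshold per comparison, besides Pparg, Cebpa, Cebpb and Klf11, and for each member the 2 genes of nearest course, leaving out predicted genes, date-like symbols and repeated symbols.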

Additional observations from a re-analysis of the deposited data

How the results depend on the processing

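Of 330 values of the 10 genes under the alternatives, 303 kept their direction and side of the threshold, 20 lost and 4 gained a call and 3 changed sign. The 3 were Klf9 (-0.0571), Klf13 (-0.0212) and Klf15 (-0.0110) for day 6 against day 2 with library totals, where 6 of the 10 were called, 4 of them higher, and where 3650 genes were higher and 6182 lower. With the replicate number as a block, 10, 10 and 8 of the 10 genes were called at day 2 against 0, day 6 against 2 and day 6 against 0, and the block changed no call among them. With 1 library left out, 7 to 10 were called for day 6 against day 2, 5 to 8 higher and 1 to 2 lower. With the longest transcript as length, 6 of the 10 kept their place in the order of day 2.

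Among the lists, library totals gave 1 call in the other Klf genes and 11 in the partners for day 6 against day 2, 5 in the Sp genes for day 6 against day 0 and 3 in the ERK5 branch for day 2 against day 0, as did DESeq2 and its size factors. With 1 library left out, calls for day 2 against day 0 ran from 1 to 2 in the other Klf genes, 1 to 3 in the Sp genes, 7 to 11 in the partners, 9 to 14 in the immediate early genes and 3 to 5 in the ERK5 branch. For day 6 against day 2 they ran from 6 to 9 in the immediate early genes and 3 to 5 in the ERK5 branch, and for day 6 against day 0 from 1 to 2 in the other Klf genes and 3 to 7 in the partners.

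Of 1881 values of the other named genes, 1783 kept direction and side, 73 lost and 6 gained a call and 19 changed sign. Those that changed sign with library totals were Gpt (0.00590) and Mef2d (0.0288) at day 2 against 0 and Mef2a (-0.225) at day 6 against 0. At day 6 against 2 they were Fos (-0.238), Mef2c (-0.0593), Map3k6 (-0.0107), C2cd2l (-0.109), Sbno1 (-0.0125), Vipas39 (-0.0756) and Tomm40 (-0.00231). Fos and Mef2a lay furthest from 0, and the change of Mef2a passed the threshold there (adjusted p = 0.0251 by edgeR). Mef2a was also -0.00659 with DESeq2's size factors and -0.00671 with DESeq2. With 1 library left out, log2 changes at day 2 against 0 ran from -0.170 to 0.0171 for Gpt, -0.100 to 0.0161 for Mef2d and -0.0815 to 0.167 for Cebpb. They ran from -0.0401 to 0.284 for Fos at day 6 against 2 and from -0.0328 to 0.0887 for Mef2a at day 6 against 0. Apart from what is named, the cause was not tested. Klf5, with 8 to 73 counts a library, is the member whose depth limits precision most.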
